A study of Mus musculus with 6 samples.

Results

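Potassium channel genes were compared between wild-type (WT) mouse embryonic fibroblasts (MEFs), the connective tissue cells that grow out of cultured embryos, and MEFs labelled GαqKO. The members were all protein-coding genes of the table whose symbol begins with Kcn, followed by further letters and a number, which gave 93 genes out of 56953 identifiers. The rule used symbols and no measured value. Each label had 3 RNA sequencing libraries, described as 3 biological replicates per genotype. By the study's account of cell culture, MEFs of both labels were grown in the same medium with 10% fetal bovine serum. For the sequenced cells no further treatment is named, and neither culture time nor confluence is given. The methods of the study describe the GαqKO cells as a Gαq/11 knockout, so that the gene of Gα11 was targeted as well, and both kinds of MEF were a gift from another laboratory. Nothing in the sources used here gives the number of embryos or isolates behind a label, so genotype and isolate cannot be told apart and the p-values measure the spread between these libraries.

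A potassium channel is a pore in a membrane through which potassium moves down its gradient, usually out of the cell. Pore subunits assemble so that their selectivity filters line the pathway, and the classes differ in what opens them. Voltage-gated channels open on depolarisation, and calcium- or sodium-activated channels open when these ions rise in the cytoplasm. Inward rectifiers pass inward current more easily than outward current, and channels with tandem pore domains (K2P) give a background leak. Auxiliary subunits carry no pore and change the traffic or gating of the pore subunits. Gαq activates phospholipase Cβ, which consumes the membrane lipid PIP2, and many potassium channels need PIP2 to stay open. In fibroblasts such channels are known for setting the membrane potential and, with it, the driving force for calcium entry.

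The selectivity filter is the stretch that the pore subunits share, and its codons are shown for several of those on which the results turn. The coding strand of GRCm39 was read 5′ to 3′ in the frame given by GENCODE M39, and the capitals mark the glycine, middle and glycine codons of the filter. The middle codon stands for tyrosine (TAT or TAC) or phenylalanine (TTT or TTC), and a match with a leucine codon there was accepted as well.
Kcnj2: acccagacaaccattGGCTATGGTttcagg
Kcnk2, first pore: gttatcacaaccataGGATTTGGAaacatc
Kcnk2, second pore: actctgacgaccattGGATTTGGAgactac
Kcnk5, first pore: gtcatcaccaccatcGGTTATGGCaatgtg
Kcnk5, second pore: accatctccaccattGGCTTTGGGgacttt
Kcnh2: agcctcaccagcgtgGGCTTTGGCaatgtc
Kcnh5: agccttacaaccataGGATTTGGAaacata
Kcnn1: accttcttgtccattGGCTATGGAgacatg
The pattern was present in all 77 genes of pore subunits and in none of the 16 genes of auxiliary subunits. All 14 K2P genes held it at 2 places, as their tandem pores require. Among the 30 voltage-gated genes, 28 held it at 1 place, and Kcna6 and Kcnh2 each held a further match with a leucine codon that lies before the filter. The middle codon did not separate the directions below: tyrosine codons stood in Kcnj2 (higher in GαqKO) and in Kcnn1 (lower), and phenylalanine codons in Kcnk2 and Kcnh5 (higher) and in Kcnh2 (lower).

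Values are normalized counts: the authors divided the reads of each gene by a size factor of the library. Fold changes are those of log2(normalized count + 1) in limma, adjusted by the method of Benjamini-Hochberg over the 14096 genes that reached 10 normalized counts in 3 or more libraries, and this scale understates the change of low genes. Of the 93 genes, 27 passed that filter, 49 had values above 0 but did not pass it, and 17 were listed at 0 in all 6 libraries. Past both thresholds (adjusted p under 0.05 and a log2 fold change over 1 or under -1) there were 18 genes, 10 of them higher under the GαqKO label and 8 lower. Over all genes tested, 20.7% passed both thresholds, 10.2% as higher and 10.5% as lower. The fold threshold mattered little for the channel genes, because 20 of the 27 had an adjusted p under 0.05 whatever the fold, where the share over all genes was 65.8%. The WT and GαqKO libraries did not overlap for 20 of the 27, against 69.6% of all genes tested. The median log2 fold change was -0.09 for the 27 genes and -0.012 for all genes tested.

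The filter had a part in these counts. Of the 18 genes past both thresholds, 3 (Kcnj2, Kcnj12 and Kcnh5) entered the test through the GαqKO libraries alone. Another 3 (Kcnk5 and Kcnmb4 among them) entered through the WT libraries alone, and genes of both kinds had to differ between the groups. A further 3 (Kcnma1, Kcnip4 and Kcnu1) reached 10 in 3 libraries of the group where they were high and in only 1 of the other. Their place in the test thus also leaned on the high group. There were 12 channel genes with at least 10 normalized counts in all 6 libraries, and 9 of these passed both thresholds, 5 as higher and 4 as lower. In the same class of all genes 13.2% passed.

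The targeted genes were read before any direction was drawn. Gnaq, the gene of Gαq, averaged 1691 ± 48.5 normalized counts in WT against 1926 ± 36.0 in GαqKO (SD, n = 3 each), and its log2 fold change was 0.19 (adjusted p = 0.00212, limma). Gna11, the gene of Gα11, fell from 2148 ± 29.0 to 452 ± 28.7 normalized counts (SD, n = 3 each). Counts over a whole gene do not show whether a transcript is intact, and because Gnaq was not lower, the libraries are called by their labels throughout. Reads recovered from the values of 5 libraries ranged from 9853000 to 12229175. Of the fibroblast markers, Col1a1, Col1a2, Vim and Fn1 were abundant in both groups, although Col1a1 fell from 16671 ± 1168 to 5774 ± 272 normalized counts (SD, n = 3 each; log2 fold change -1.53), while Pdgfra (19.6 ± 2.23 against 2320 ± 42.0), Dcn (32.1 ± 3.00 against 1663 ± 53.8) and Thy1 (0.696 ± 1.21 against 64.9 ± 10.1) were low in WT (SD, n = 3 each). Of the other fibroblast markers, Pdgfrb averaged 892 normalized counts in WT and 1046 in GαqKO, and Col3a1 2710 and 2393. S100a4 rose from a mean of 170 to 518, past both thresholds. Lum, which was not tested, averaged 0 in WT and 2.98 in GαqKO. Tnnt2, a cardiac troponin, was lower in GαqKO, going from 753 ± 38.6 to 6.49 ± 1.36 normalized counts (SD, n = 3 each). So was Cdh1, an epithelial cadherin, going from 238 ± 3.06 to 7.96 ± 2.72 (SD, n = 3 each). Tubb3, a neuronal tubulin (406 ± 35.5 to 60.9 ± 12.1), and the smooth muscle markers Acta2 (715 ± 79.6 to 266 ± 18.8) and Tagln (43.1 ± 10.8 to 6.64 ± 2.28) also fell past both thresholds (SD, n = 3 each). Of the 7 neuronal markers 3 were tested, and only Tubb3 passed both thresholds. Map2 averaged 431 normalized counts in WT and 470 in GαqKO (log2 fold change 0.13). Syt1 had a log2 fold change of -0.88 (adjusted p = 0.0755, limma). Of the 8 smooth muscle or pericyte markers 4 were tested. Besides Acta2 and Tagln these were Notch3 and Des, with log2 fold changes of 0.13 and 0.017. Of the 11 fibroblast markers 10 were tested, with 4 higher and 1 lower past both thresholds. Their median log2 fold change was 0.025. Summed, the 11 fibroblast genes came to 84406 to 90167 normalized counts in WT and 62925 to 66197 in GαqKO. Much of that sum was Vim, with means of 41785 in WT and 33508 in GαqKO. The 5 epithelial genes summed to between 255 and 285 in WT and between 9.06 and 20.8 in GαqKO. The part of these differences in the values of the channel genes was not tested. In such bulk libraries, fewer cells of a type and less RNA per cell cannot be told apart.

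**Figure D1:**
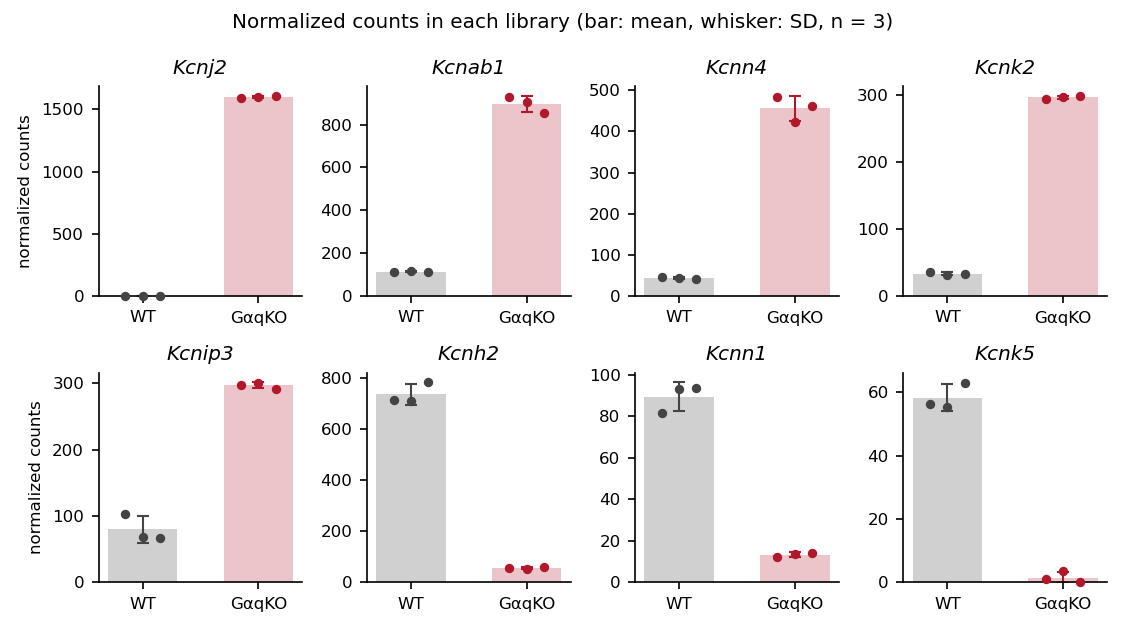
Normalized counts of 8 potassium channel genes, 1 panel per gene with its own linear axis from 0, for the WT and GαqKO libraries. Points are libraries, bars are means and whiskers are SDs (n = 3); the groups do not overlap in any panel, with Kcnj2 between 0 and 2.09 in WT and between 1589 and 1607 in GαqKO.

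Kcnj2 encodes Kir2.1, a strong inward rectifier that holds cells near the potassium equilibrium potential. The gene (ENSMUSG00000041695.3) is found on chromosome 11 of GRCm39, 110956981 to 110967665. There were 2.09, 0 and 0 normalized counts in WT replicates 1, 2 and 3, and 1589, 1596 and 1607 in GαqKO replicates 1, 2 and 3. The GαqKO libraries were thus nearly equal while each WT library was under the floor of 3 counts. In recovered reads there were 3072 in 2 GαqKO libraries and 2 in 3 WT libraries, a depth-adjusted ratio of 2364 (exact 95% interval 654 to 19526, counting error only). The fitted log2 fold change was 10.10 with standard error 0.35 (adjusted p = 1.91e-11, limma), and its size depends on the added 1 because WT was near 0.

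With 292 ± 1.70 normalized counts per kb of exon (SD, n = 3), Kcnj2 had the highest level per length of all 93 genes in the GαqKO libraries, where Kcnip3 was next at 73.0 ± 1.07 per kb. It made up 37.3%, 36.9% and 38.9% of the summed normalized counts of the 93 genes in GαqKO replicates 1, 2 and 3, and at most 0.114% in a WT library. Kcnj16, the channel gene nearest to it at a distance of 29.4 kb, had mean normalized counts of 1.32 in WT and 2.79 in GαqKO. The large difference at Kcnj2 had no counterpart at this neighbour.

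The other inward rectifiers were low. Of the 15 genes of the class, 4 were tested and 4 were listed at 0 in every library, among them Kcnj11, a subunit of the ATP-sensitive channel. Kcnj12, which encodes Kir2.2, had 3.13, 1.94 and 4.07 normalized counts in WT and 14.1, 13.9 and 15.1 in GαqKO. The groups did not overlap, and the log2 fold change was 1.96 with standard error 0.42 (adjusted p = 0.00098, limma), while DESeq2 on the recovered reads of 5 libraries gave an adjusted p of 0.0547. Kcnj14, which encodes Kir2.4, had 31.3, 42.7 and 55.0 normalized counts in WT and 46.0, 61.3 and 44.3 in GαqKO, and these ranges overlapped. Without Kcnj2 the class summed to 82.6 ± 16.7 normalized counts in WT and 84.5 ± 22.0 in GαqKO (SD, n = 3 each), so the difference between the class sums of 83.3 ± 16.3 and 1682 ± 22.0 lay in that gene.

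Among the K2P leak channels, the mechanosensitive TREK-1 and the alkaline-activated TASK-2 moved in opposite directions. Kcnk2, the gene of TREK-1 (ENSMUSG00000037624.16, chromosome 1, 188940126 to 189134470), had 35.5, 31.1 and 32.6 normalized counts in WT and 294, 297 and 298 in GαqKO. That is an 8.97-fold higher mean in GαqKO, with a log2 fold change of 3.13 with standard error 0.14 (adjusted p = 1.77e-10, limma). Kcnk5, the gene of TASK-2 (ENSMUSG00000023243.10, chromosome 14, 20190125 to 20231900), had 56.4, 55.4 and 63.1 normalized counts in WT and 0.939, 3.47 and 0 in GαqKO. With 173 recovered reads in 3 WT libraries and 4 in 2 GαqKO libraries, the ratio was 28.1 (exact 95% interval 10.8 to 104, counting error only). Kcnk5 had the most negative fitted value of the channel genes, a log2 fold change of -4.85 with standard error 0.49 (adjusted p = 1.06e-06, limma). Its neighbour Kcnk16, 79.5 kb away, was listed at 0 in all 6 libraries. Of the 14 K2P genes only 1 more was tested, Kcnk4, the gene of TRAAK, whose log2 fold change was 0.30 (adjusted p = 0.535, limma).

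Kcnj2 and Kcnk5 were each near the floor in a group, and the 250 bases before the start of each are shown because they are the proximal promoters of the genes with the largest differences in either direction. The sequences are those of RefSeq on GRCm38.p6, an older build whose coordinates differ from those given above, and the capitals mark CpG dinucleotides (CG).
Kcnj2, chr11:111065914-111066163, plus strand: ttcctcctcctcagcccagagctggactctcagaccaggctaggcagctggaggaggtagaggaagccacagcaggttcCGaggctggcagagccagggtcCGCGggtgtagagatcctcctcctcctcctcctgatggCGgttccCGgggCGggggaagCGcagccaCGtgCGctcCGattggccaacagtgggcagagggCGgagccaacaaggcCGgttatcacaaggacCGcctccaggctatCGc
Kcnk5, chr14:20181783-20182032, minus strand: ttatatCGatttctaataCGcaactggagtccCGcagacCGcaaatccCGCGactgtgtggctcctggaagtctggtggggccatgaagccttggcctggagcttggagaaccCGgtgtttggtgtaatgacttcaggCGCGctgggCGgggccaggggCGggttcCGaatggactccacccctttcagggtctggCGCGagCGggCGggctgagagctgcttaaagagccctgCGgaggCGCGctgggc
Promoter windows were found for 67 of the 93 genes. Where a gene had several windows, the one with the most CpG was counted, which raises the values of such genes. Kcnj2 and Kcnk5 had 1 window each. Over windows of 300 bases, from 250 before to 50 after the start, the median number of CpG was 17 for 15312 protein-coding genes, 18 for Kcnj2 and 26 for Kcnk5. At least 15 CpG were present in 55.5% of protein-coding promoters. For 13 channel genes listed at 0 in every library the median was 5, for the 21 tested genes it was 18, for the 10 higher genes 17.5, and for the 5 lower genes with a window 25. These counts describe letters in a window, and no methylation was measured.

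Voltage-gated channels made up the largest class, with 30 genes of which 7 were tested, 2 higher and 2 lower past both thresholds. Kcnh2, the gene of the ERG1 (Kv11.1) channel that repolarises the cardiac action potential, lies on chromosome 5 from 24524567 to 24556762 (ENSMUSG00000038319.15). It had 716, 711 and 784 normalized counts in WT and 55.4, 54.3 and 61.4 in GαqKO. This was the most abundant channel gene of the WT libraries per length, at 142 ± 7.82 normalized counts per kb of exon (SD, n = 3), and it was 12.9-fold higher in WT by the means. Its log2 fold change was -3.67 with standard error 0.10 (adjusted p = 1.88e-12, limma). The annotated gene Gm15589 spans 82.1% of its exon bases, although the exons of the pair share none. Because Kcnh2 is known from heart muscle, the cardiac markers are given beside it: Myh6 and Actc1 were listed at 0 in all 6 libraries (Actc1 with 100% of its exon bases inside the span of another gene, where a 0 does not show absence), Nkx2-5 and Myl7 had at most 1.37 normalized counts in either group mean, and the sum of the 5 markers, almost all Tnnt2, was 726 to 800 in WT and 6.57 to 10.1 in GαqKO. The part of that difference in the value of Kcnh2 was not tested.

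Kcnq5, which encodes Kv7.5, a PIP2-dependent channel of the M-current, had 48.0, 52.5 and 49.9 normalized counts in WT and 142, 157 and 132 in GαqKO. The groups were well apart, with a 2.87-fold higher mean in GαqKO and a log2 fold change of 1.498 with standard error 0.15 (adjusted p = 9.98e-07, limma). Kcnh5, the gene of EAG2, had 5.22, 3.89 and 3.05 normalized counts in WT and 31.9, 19.7 and 26.2 in GαqKO, with a log2 fold change of 2.41 (adjusted p = 6.27e-05, limma). Kcnd1, the gene of the A-type channel Kv4.1, had 71.0, 80.6 and 52.9 normalized counts in WT and 42.3, 40.5 and 41.3 in GαqKO. The groups did not overlap and the adjusted p was 0.00888 (limma), but the log2 fold change of -0.69 did not reach the fold threshold. The summed voltage-gated class went from 978 ± 25.4 to 369 ± 15.3 normalized counts (SD, n = 3 each), and this fall lay in Kcnh2. The 10 genes of voltage-gated modifiers, which are silent alone and join other voltage-gated subunits, had no member past the filter, and their sum stayed at or below 26.6 normalized counts in every library.

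**Figure D2:**
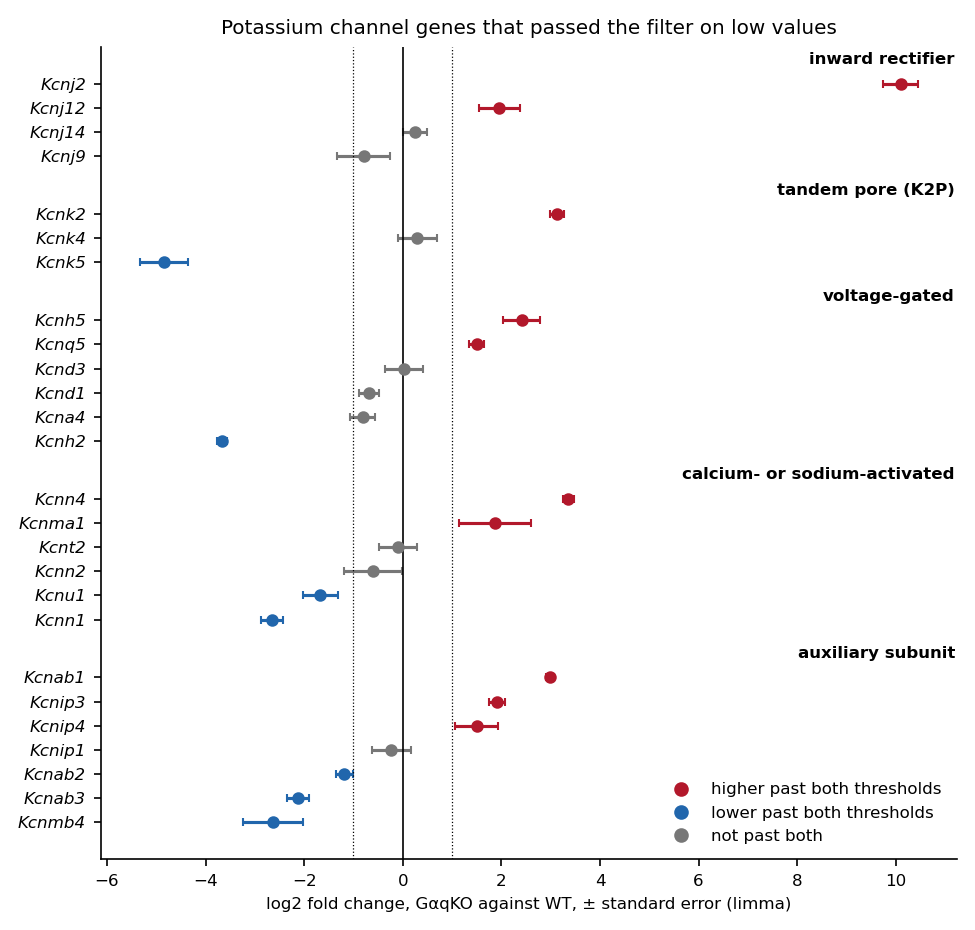
Log2 fold changes of GαqKO against WT from limma, with standard errors, for 26 of the potassium channel genes that passed the filter on low values, grouped by class; dotted lines mark the fold thresholds. Red points are 10 higher and blue points 7 lower genes past both thresholds, and each class except the inward rectifiers holds both colours.

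The class named calcium- or sodium-activated, set by the letters of the symbol, had the largest tested share, 6 of 8 genes. Past both thresholds 2 were higher (Kcnn4 and Kcnma1) and 2 lower (Kcnn1 and Kcnu1). The call of Kcnma1 was lost when certain libraries were left out, as given below. Kcnu1 was placed in the class by its symbol alone, and what opens its channel was not examined. Kcnn4 encodes KCa3.1, the intermediate-conductance channel of fibroblasts and lymphocytes that calmodulin opens, and lies on chromosome 7 from 24066915 to 24086115 (ENSMUSG00000054342.9). It had 45.9, 43.7 and 40.7 normalized counts in WT and 483, 423 and 462 in GαqKO. All GαqKO libraries were far above all WT libraries, 10.5-fold by the means, with a log2 fold change of 3.36 with standard error 0.12 (adjusted p = 2.27e-11, limma). Kcnn1, which encodes the small-conductance relative SK1, had 81.4, 93.3 and 93.6 normalized counts in WT and 12.2, 13.9 and 14.1 in GαqKO. Its WT mean was 6.68-fold higher, and the log2 fold change was -2.65 with standard error 0.22 (adjusted p = 1.28e-07, limma). The pair thus changed places: per kb of exon, Kcnn1 stood at 15.8 ± 1.23 and Kcnn4 at 5.51 ± 0.333 normalized counts in WT, and at 2.37 ± 0.183 and 57.8 ± 3.83 in GαqKO (SD, n = 3 each).

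Kcnu1, the gene of the sperm channel SLO3, had 25.1, 25.3 and 33.6 normalized counts in WT and 12.2, 8.09 and 5.04 in GαqKO (log2 fold change -1.68, adjusted p = 0.000938, limma). Kcnma1, the gene of the large-conductance BK channel, had 7.31, 0 and 10.2 normalized counts in WT and 14.1, 22.0 and 12.1 in GαqKO. Its log2 fold change was 1.87 with a standard error of 0.73 (adjusted p = 0.0365, limma). That call rested on the library at 0: without WT replicate 2 the log2 fold change of Kcnma1 was 0.78 and the adjusted p 0.106 (limma), and without WT replicate 3 the log2 fold change was 2.52. The call was also lost when any of the GαqKO replicates was left out, where the adjusted p ran from 0.0632 to 0.121.

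Auxiliary subunits supplied 6 of the 18 genes past both thresholds, 3 in each direction, among 16 genes of which 7 were tested. The Kvβ genes, whose cytoplasmic subunits bind Kv1 channels and resemble oxidoreductases, diverged. Kcnab1 (Kvβ1) had 112, 115 and 110 normalized counts in WT and 928, 906 and 854 in GαqKO, a 7.99-fold higher mean (log2 fold change 2.99, standard error 0.078, adjusted p = 1.18e-12, limma). Kcnab2 (Kvβ2) had 100.2, 104 and 102 in WT and 50.7, 38.2 and 44.3 in GαqKO, a log2 fold change of -1.19 (adjusted p = 3.54e-05, limma). Kcnab3 (Kvβ3) had 76.2, 74.8 and 88.6 in WT and 15.02, 22.0 and 16.1 in GαqKO, a log2 fold change of -2.13 (adjusted p = 1.95e-06, limma). Within each group the 3 libraries lay close together, so Kvβ1 rose while its relatives fell in the same libraries. Their usual partners were hardly counted: of 8 Kv1 genes, 4 were listed at 0 (of which Kcna3 and Kcna6 have 100% and 93.6% of their exon bases inside other gene spans, so that a 0 does not show absence), and only Kcna4 was tested, at 40.0 ± 2.56 normalized counts in WT and 22.5 ± 4.52 in GαqKO (SD, n = 3 each; log2 fold change -0.82, adjusted p = 0.00943, limma).

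Kcnip3, which encodes the calcium-binding protein KChIP3, also known as DREAM and calsenilin, had 103, 69.0 and 67.2 normalized counts in WT and 298, 301 and 292 in GαqKO. Replicate 1 was the highest WT library, and the groups were still well apart (3.72-fold by the means, log2 fold change 1.91, standard error 0.15, adjusted p = 1.05e-07, limma). Its relative Kcnip4 had 16.7, 3.89 and 9.16 in WT and 24.4, 34.7 and 21.1 in GαqKO (log2 fold change 1.505, standard error 0.44, adjusted p = 0.00773, limma). KChIPs are known as partners of Kv4 channels, whose 3 genes summed to 85.0 ± 17.7 normalized counts in WT and 63.9 ± 5.88 in GαqKO (SD, n = 3 each). Kcnmb4, which encodes the neuronal β4 subunit of BK channels, had 16.7, 12.6 and 10.2 normalized counts in WT and 0, 4.62 and 1.007 in GαqKO (log2 fold change -2.63, standard error 0.61, adjusted p = 0.00184, limma). Without GαqKO replicate 2, the highest of its group, the log2 fold change of Kcnmb4 was -3.297.

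**Figure D3:**
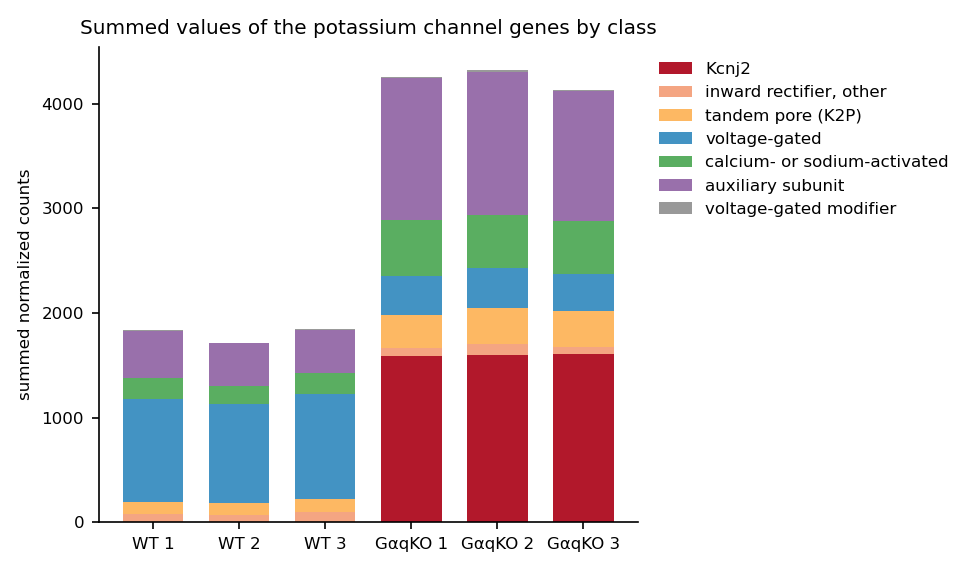
Summed normalized counts of the 93 potassium channel genes in each library, stacked by class with Kcnj2 drawn apart from the other inward rectifiers. The sums were 1715 to 1844 in the WT libraries, where voltage-gated genes made the largest block, and 4131 to 4327 in the GαqKO libraries, where Kcnj2 and the auxiliary subunits did.

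Across all the channel genes, auxiliary subunits included, the sum of normalized counts was 1798 ± 72.3 in WT and 4239 ± 99.6 in GαqKO (SD, n = 3 each). Without Kcnj2 it was 1797 ± 71.8 and 2642 ± 107, with no overlap between the groups. The plot of class sums shows where this lay. Auxiliary subunits went from 420 ± 27.5 to 1320 ± 66.6, K2P channels from 117 ± 5.71 to 334 ± 8.44 and calcium- or sodium-activated channels from 194 ± 16.7 to 519 ± 18.7 (SD, n = 3 each). The voltage-gated class was the only class with a lower sum in GαqKO, and that fall lay in Kcnh2. Kcnh2 alone went from 737 ± 40.5 to 57.1 ± 3.82 (SD, n = 3 each), a larger fall than that of the class sum. The other voltage-gated genes together were not lower in GαqKO. Sums weigh genes by abundance and length, and each rests on few genes: Kcnh2 in the voltage-gated class, Kcnab1 and Kcnip3 among auxiliary subunits, Kcnk2 among K2P channels, and Kcnn4 among the calcium-activated channels.

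The 66 untested genes and several of the low tested ones were read against a background that followed gene length. In 254 other protein-coding genes of at least 200000 bases with low values (under 20 normalized counts) and under 20% of their exon bases inside other genes, the summed value per Mb of gene span was 20.1, 5.26 and 14.0 normalized counts in WT replicates 1, 2 and 3 and 13.4, 21.8 and 9.91 in GαqKO replicates 1, 2 and 3. The 5 long untested channel genes gave 21.7, 4.13 and 12.01 per Mb in WT and 15.95, 22.4 and 9.03 in GαqKO, so WT replicate 2 was the lowest and GαqKO replicate 2 the highest in both sets. Over the 50 untested channel genes with as little overlap, mean normalized count went with gene span (Spearman's rho 0.53) more than with exon length (0.39); these are descriptions across genes, which share libraries and are not independent.
Kcnma1, at 15.1 normalized counts per Mb over the 6 libraries, Kcnip4 at 16.1 and Kcnn2 at 18.03 lay within the range of that background. These means hide the groups: per Mb, Kcnma1 was at 8.04 in WT and 22.1 in GαqKO, Kcnip4 at 8.74 and 23.6, and Kcnn2 at 21.2 and 14.8. In each GαqKO library, Kcnma1 (19.4, 30.3 and 16.7) and Kcnip4 (21.5, 30.6 and 18.6) were above the summed background of that library. Single genes of the background ran from 0 to 69.0 per Mb in GαqKO, with quartiles of 10.5 and 19.8. The GαqKO values of Kcnma1 and Kcnip4 thus lay above the upper quartile but within that range. The background was also limited to genes under 20 normalized counts, which both genes exceeded in GαqKO replicate 2 (22.0 and 34.7), so it could not hold genes like them. WT replicate 2, which had the lowest background, was also the WT library with the lowest value of Kcnma1 and of Kcnip4. Kcnh5, which spans 0.282 Mb, was at 14.4 per Mb in WT, within the background, and at 92.0 in GαqKO, above it. When the background of each library was subtracted in proportion to span, a step chosen after seeing the data, the same 18 genes passed both thresholds, and the log2 fold change rose to 3.42 for Kcnip4, 2.58 for Kcnma1 and 3.86 for Kcnh5. Those larger values come from WT levels taken close to 0.

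**Figure D4:**
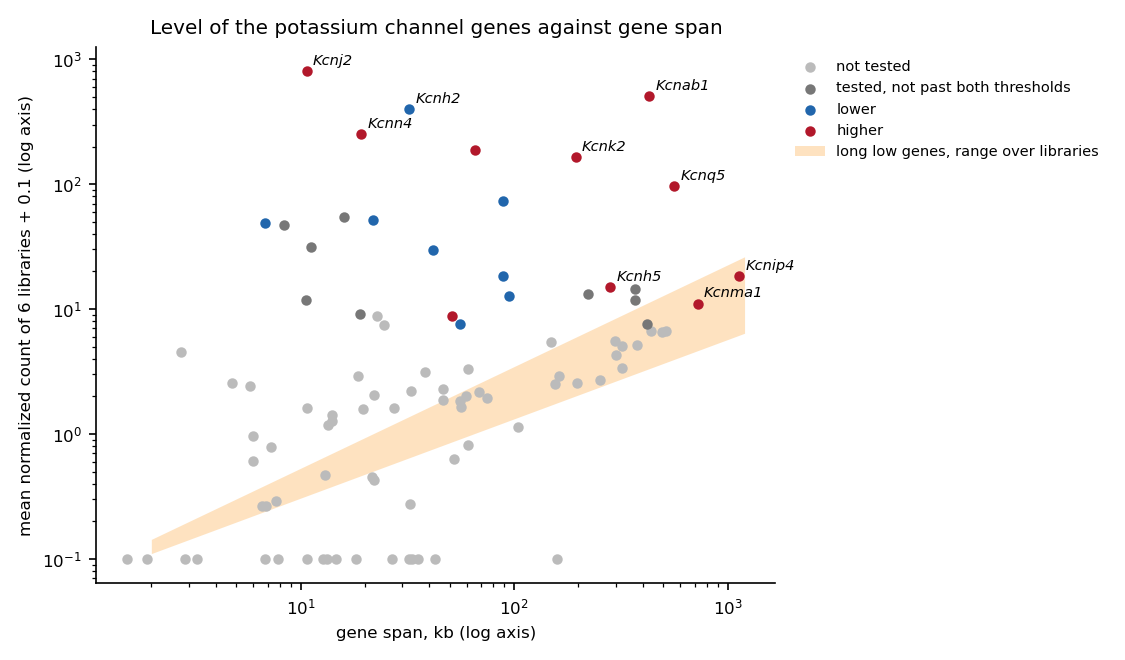
Mean normalized count over the 6 libraries plus 0.1 against gene span in kb, both on log axes, for the 93 potassium channel genes. The orange band is the range over libraries of 254 long genes with low values (5.26 to 21.8 normalized counts per Mb), and Kcnma1 and Kcnip4 lie in it while Kcnj2, Kcnh2, Kcnn4, Kcnk2, Kcnab1 and Kcnq5 lie far above.

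Overlap with other genes limits what some values mean, since neither the strand setting of the counting nor its feature type (exons or whole genes) is given in the sources used here. Other genes span 28.8% of the exon bases of Kcnab1, 39.2% of those of Kcnab3 (by Kcnab3os), 56.9% of those of Kcnip4, 21.3% of those of Kcnk2 and 21.8% of those of Kcnmb4 (by Kcnmb4os1 and Kcnmb4os2). Of the 17 genes listed at 0 in all 6 libraries, 6 had all of their exon bases inside the span of another gene: Kcne3, Kcne4, Kcnmb1, Kcnj13, Kcnj15 and Kcna3. Kcnmb1, for example, lies wholly inside Kcnip1, and Kcnj13 inside Gigyf2. Exons of other genes covered none of the exon bases of Kcne4 and Kcnmb1, and how their 0 values arose was not tested. Another 8 of the 17 had no exon base inside another gene. Of the 49 genes above 0 that did not pass the filter, 40 stayed under 10 normalized counts in every library. Kcnj4, the gene of Kir2.3, had the highest mean of the 66 untested genes, with 17.8, 8.74 and 21.4 normalized counts in WT and 0, 2.31 and 2.01 in GαqKO, and was named after its values were seen. There were 13 pairs of channel genes within 250 kb of each other, involving 19 genes, and in no pair did both genes pass the thresholds.

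Potassium also depends on pumps, cotransporters and other channels, and 46 such genes in 5 lists were read in the same fit. Of the 28 that were tested, 2 were higher and 5 lower past both thresholds (20.7% of all genes tested passed in either direction), and 21 had an adjusted p under 0.05 whatever the fold (65.8% of all genes tested). The median log2 fold change of the 28 was -0.11.

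Other channels that let potassium through differed as well. Hcn2, the gene of a pacemaker channel that opens on hyperpolarisation, went from 24.0, 30.1 and 40.7 to 1.88, 2.31 and 4.03 (log2 fold change -3.13), and Hcn3 overlapped between the groups, at 96.1 ± 4.66 and 111 ± 21.0 (SD, n = 3 each). Tmem38b, which encodes TRIC-B, a counter-ion channel of the endoplasmic reticulum, had 204, 201 and 179 normalized counts in WT and 12.2, 4.62 and 4.03 in GαqKO (log2 fold change -4.76, standard error 0.32). Its relative Tmem38a (TRIC-A) had 432 ± 30.3 and 273 ± 36.4 normalized counts (SD, n = 3 each; log2 fold change -0.67, past the adjusted p alone).

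In the sodium pump list, 4 of 14 genes were tested. The β subunits of the pump moved apart: Atp1b1 fell from 1247 ± 97.4 to 570 ± 23.7 (log2 fold change -1.13, not past limma's treat test against the fold threshold, adjusted p = 0.24), and Atp1b3 went from 2126 ± 45.4 to 3214 ± 27.0 (SD, n = 3 each; log2 fold change 0.60, past the adjusted p alone). Fxyd5, the gene of the regulatory subunit dysadherin, had 25.1, 40.8 and 21.4 normalized counts in WT and 236, 248.6 and 266 in GαqKO (log2 fold change 3.11, standard error 0.21). Among cotransporters, the potassium-chloride exporter gene Slc12a7 fell from 975 ± 18.8 to 441 ± 37.2 (log2 fold change -1.15, adjusted p = 0.179 in the treat test), while Slc12a2, which encodes the importer NKCC1, stood at 1125 ± 76.1 and 1937 ± 10.6 (SD, n = 3 each; log2 fold change 0.79, past the adjusted p alone).
All 10 genes of phosphoinositide supply, the kinases that make PIP2 and its precursors, were tested, and only Pip4k2a passed both thresholds, falling from 700 ± 26.7 to 249.8 ± 16.3 normalized counts (SD, n = 3 each; log2 fold change -1.49). The other 9 had log2 fold changes between -0.48 (Pi4ka) and 0.40 (Pi4k2a).

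**Figure D5:**
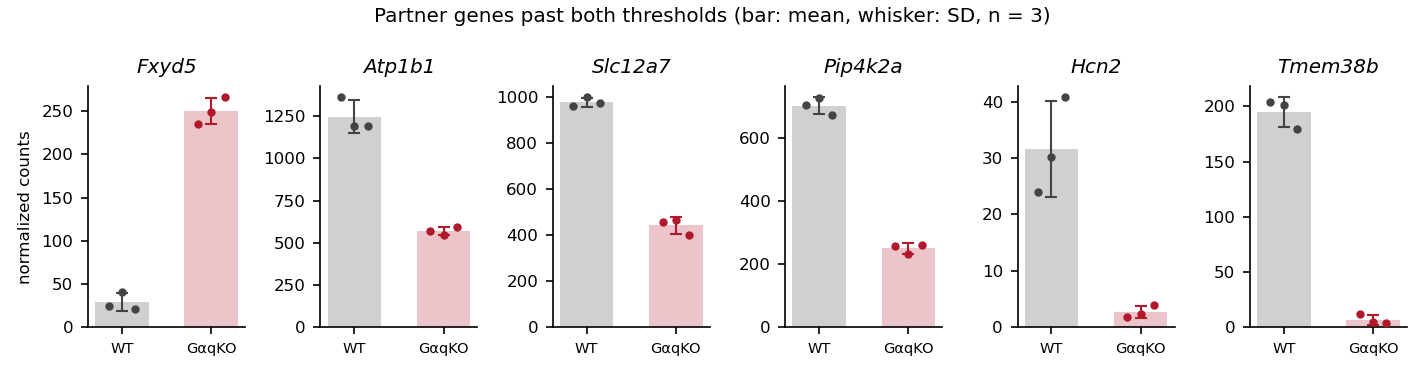
Normalized counts of 6 partner genes past both thresholds, 1 panel per gene with its own linear axis from 0, for WT and GαqKO libraries. Points are libraries, bars are means and whiskers are SDs (n = 3); Fxyd5 was higher in every GαqKO library than in any WT library and the other 5 were lower.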

How the data were processed

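The data were 6 RNA sequencing libraries, grouped by their titles into WT and GαqKO. The authors selected poly-A RNA, aligned paired reads to GRCm39 with Rbowtie2, assigned them to the genes of GENCODE M32 with featureCounts and used DESeq2. They deposited a signal table of normalized counts (reads of a gene over the size factor of its library) for 56953 genes. The tools' versions and the strand setting and feature type (exon or whole gene) of the counting are not given in the sources used here. The sum over genes was 11392429 to 11483486 per library.

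Identifiers were matched to GENCODE M39 (56310 matched, 643 did not), which gave symbols, exon lengths and spans. Genes that reached 10 normalized counts in 3 or more libraries were fitted with limma 3.58.1 (R 4.3.3) on log2(normalized count + 1), letting the prior spread follow the mean, and p-values were adjusted by Benjamini-Hochberg. In 5 libraries 100% of the values were whole multiples of the value of 1 read within 0.1 reads, so reads were recovered. Those of GαqKO replicate 3 were not used, and edgeR 4.0.16 and DESeq2 1.42.0 were run on 5 libraries as alternatives. Past both thresholds edgeR called 2900 genes, DESeq2 2841 and limma on the same 5 libraries 2872. In the 4 replicate pairs with recovered reads, libraries differed by more than counting noise (chi-square of 2.44 to 5.50 per gene); GαqKO replicate 3 was not in this comparison. Intervals and the floor of 3 counts cover counting error only.

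The channel genes, the classes (from the letters of the symbol) and the partner and marker lists were chosen with earlier results of these data known. Genes named in the text were Kcnj2, every channel and partner gene past both thresholds, the 12 tested channel genes with the highest means, Gnaq and Gna11; others were named after their values were seen, where a count or feature called for it. A few genes and sequences chosen in this way are not reported here. The scripts were tested on simulated data. Alternatives covered scaling, filter, pseudocount (0.5 and 5), replicate block, prior spread, limma's treat test, the count tests and each library left out. Promoters were from the RefSeq table of GRCm38.p6. Python 3.11.15 was used with pandas 2.3.3, numpy 2.4.6, scipy 1.17.1 and matplotlib 3.10.9.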

Additional observations from a re-analysis of the deposited data

How the results depend on the processing

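With a minimum of 10 normalized counts in each of the 6 libraries, 5 higher and 4 lower channel genes were past both thresholds, 11 had an adjusted p under 0.05 whatever the fold, and 4 partner genes were past both, because fewer genes were then tested. The treat test of limma against a log2 fold change of 1 left 4 lower channel genes and 11 in either direction, losing among others Kcnab2, Kcnip4, Kcnj12, Kcnma1, Kcnmb4 and Kcnu1, and 5 partner genes, losing Atp1b1 (adjusted p = 0.24) and Slc12a7 (adjusted p = 0.179). Under the other alternatives run, 16 to 18 of the same 18 channel genes passed both thresholds, and none of the 29 log2 fold changes recomputed (the channel and partner genes past both thresholds, Kcnd1, Kcnj14, Gnaq and Gna11) reversed. Kcnma1 was lost most often, at a pseudocount of 0.5, without the trend, in DESeq2 and without WT replicate 2 or any GαqKO replicate. DESeq2 also lost Kcnj12 and added Kcnj4, and Kcnj9 was added without GαqKO replicate 2. Without a filter 4 genes were added (Kcne2, Kcnh4, Kcnj4 and Kcnk10). Leaving out a library in turn gave log2 fold changes from 9.83 to 10.64 for Kcnj2, -5.41 to -4.33 for Kcnk5, -3.72 to -3.62 for Kcnh2, -3.297 to -2.05 for Kcnmb4 and 0.78 to 2.52 for Kcnma1. At a pseudocount of 5 Kcnmb4 stood at -1.44.

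The replicate numbers are shared by the groups but do not pair the libraries: the deviations of same-numbered libraries correlated at -0.045, -0.15 and -0.064. With the replicate number as a block, the same 18 channel genes passed both thresholds, 10 higher and 8 lower.

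Depth limits the low genes: at 9853000 to 12229175 reads per library, a gene at 0 in a library allows up to 3 counts there.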
